A study of Homo sapiens with 4 samples.

Results

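The activin genes described here are the subunits INHBA, INHBB and INHBE, the follistatins FST and FSTL3, the type I receptors ACVR1 and ACVR1B and the type II receptors ACVR2A and ACVR2B. They are 9 of the 35767 genes in the count table, found by symbol, and all 9 passed the filter on low counts. RNA was sequenced from SAS cells, a line from a human tongue squamous cell carcinoma, with 2 libraries labelled siControl (genotype label WT) and 2 labelled siNAT10 (genotype label NAT10 knockdown in replicate 1 and NAT11 knockdown in replicate 2). NAT10 is an enzyme that acetylates cytidines in RNA. The labels call the libraries biological replicates without naming separate cultures, so the spread between them may be technical. The genes were chosen with the siNAT10 to siControl difference in view, INHBA and INHBE for moving in opposite directions, so their values are a description and carry no test.

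Activins are secreted dimers of inhibin beta subunits. INHBA forms activin A, INHBB activin B and INHBE activin E. An activin dimer binds a type II receptor, ACVR2A or ACVR2B, which then phosphorylates a type I receptor such as ACVR1B, and the type I receptor phosphorylates SMAD2 and SMAD3. Follistatin (FST) and follistatin-like 3 (FSTL3) bind activins A and B outside the cell and keep them from their receptors. ACVR1 signals mainly for bone morphogenetic proteins (BMPs) through SMAD1 and SMAD5 and can be held in inactive complexes by activin A. In epithelia activin A is known from wound repair and squamous carcinoma, while INHBE is best known as a liver-secreted factor.

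The promoters of INHBA and FSTL3, the members with the largest increases in the libraries labelled siNAT10, are shown as the 250 bases before the RefSeq start (GRCh38.p14), 5′ to 3′ on the gene's strand. Capitals mark matches to the searched motifs. Entries for 8 of the 9 genes were matched by symbol in the RefSeq promoter table used here, with 11 start sites among them. The INHBE promoter was not analysed here.
INHBA: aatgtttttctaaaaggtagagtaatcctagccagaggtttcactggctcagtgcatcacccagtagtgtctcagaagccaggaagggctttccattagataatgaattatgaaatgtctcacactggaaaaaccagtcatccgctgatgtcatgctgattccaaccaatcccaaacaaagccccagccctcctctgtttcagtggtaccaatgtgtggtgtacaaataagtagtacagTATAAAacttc
FSTL3: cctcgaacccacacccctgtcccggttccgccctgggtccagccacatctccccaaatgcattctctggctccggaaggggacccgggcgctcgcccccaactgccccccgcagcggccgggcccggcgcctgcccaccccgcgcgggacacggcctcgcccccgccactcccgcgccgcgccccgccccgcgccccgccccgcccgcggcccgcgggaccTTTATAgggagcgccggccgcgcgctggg
The INHBA window is chr7:41703091-41703340 on the minus strand. It lies inside the deposited INHBA row, because other transcripts start further upstream, and 18 of its bases are exonic there. The FSTL3 window is chr19:676142-676391 on the plus strand, with 27 bases in the row's first exon. In all, 5 motifs were searched on both strands, each chosen after the values and the sequences had been seen. They were AP-1 (TGANTCA), the core of the cyclic AMP response element (TGACG), the TEAD site (GGAATG), the palindromic SMAD box (GTCTAGAC) and the TATA box (TATAAA). The only match in either window was the TATA box, 11 bases before the INHBA start on the gene's strand and 29 bases before the FSTL3 start on the opposite strand. Of 35116 promoter windows, 10.7% held it. The windows differed in base composition, at 42.8% G and C for INHBA and 80% for FSTL3. In the FST window an AP-1 match (TGATTCA) began 160 bases before the start. Of that window's 250 bases, 220 are exonic in the deposited FST row, and the match lies among them. Among the ACVR1 windows, 1 held an AP-1 match (TGACTCA) 24 bases before its start and 1 a TEAD match 246 bases before its start. The ACVR2B window held a TEAD match on the opposite strand at 226 bases. Exonic bases numbered 0 in that AP-1 window, 112 in the ACVR1 window with the TEAD match and 39 in the ACVR2B window. AP-1 matches were held by 6.57% of windows, TEAD matches by 11.9%, the response element core by 21.2% and the SMAD box by 0.182%.

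Library totals ranged from 30794757 to 36341785 counts. NAT10 itself, the check of the labels, had 240.4 and 231 CPM (counts scaled to a common library size of 1e6) in the siControl pair and 253 and 248 CPM in the siNAT10 pair. The difference was 0.09 ± 0.06 on the log2 scale (SE, 2 libraries each, adjusted p = 0.293 by edgeR's quasi-likelihood test), and -0.02 with libraries scaled by their totals alone. The knockdown named in the labels is not seen in these counts, so every direction below is that of the libraries labelled siNAT10. Of the markers of squamous epithelium, KRT17 and SFN were abundant, at 543 to 866 and 228 to 267 CPM, while TP63 was at no more than 0.97 CPM, KRT5 at no more than 7 counts and DSG3 at 0 counts in 3 of 4 libraries. The summed CPM of 8 squamous markers was 1079.8 and 1109 in siControl and 814 and 861 in siNAT10, with KRT17 making up most of it. KRT17, KRT14 and EPCAM were lower in siNAT10 (log2 fold changes -0.58 ± 0.07, -1.09 ± 0.20 and -0.99 ± 0.15), and SFN was higher (0.17 ± 0.06). TP63 and CDH1 had log2 fold changes of -0.85 ± 0.40 and -0.48 ± 0.32. The summed CPM of 6 fibroblast markers was 34.3 and 37.7 against 31.8 and 30.7, that of 4 leukocyte markers 50.6 and 53.2 against 54.1 and 54.0, of which CD68 made up most, and that of 3 endothelial markers 2.52 and 3.02 against 3.35 and 3.76. The endothelial markers went opposite ways, PECAM1 with 35 and 46 counts against 10 and 4, and VWF with 7 and 2 against 39 and 26. The leukocyte-defining PTPRC was at 4 counts or fewer in each library, and the liver genes ALB and APOA1 at 2 counts or fewer. The part of these marker differences in the values below was not tested.

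INHBA mRNA was 3.88-fold higher in the libraries labelled siNAT10, and INHBE mRNA 8.97-fold lower. INHBA (ENSG00000122641, chromosome 7, 41667168 to 41705834, minus strand, GRCh38) had 424 and 460 counts in replicates 1 and 2 of siControl, against 1678 and 1264 in those of siNAT10. Scaled by library, these were 11.1 and 12.4 CPM against 48.5 and 42.8 CPM, and the groups did not overlap. On the log2 scale the difference was 1.96 ± 0.10 (SE, n = 2 per group). The antisense gene INHBA-AS1, which overlaps the INHBA span but none of its exons, had between 3 and 11 counts per library. Bulk RNA does not tell fewer expressing cells from less RNA per cell, here or for any gene below.

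INHBE (ENSG00000139269, chromosome 12, 57452323 to 57459280, plus strand) had 1153 and 1093 counts in the siControl libraries and 129 and 85 in the siNAT10 libraries. These were 30.3 and 29.4 CPM against 3.73 and 2.88 CPM, so that each siNAT10 library was far below each siControl library. On the log2 scale the difference was -3.16 ± 0.13 (SE, n = 2 per group). No other row shares INHBE exons. INHBE had the steepest decrease among the 9 genes, and it was the one whose siNAT10 replicates differed most for their level, with a mean of 3.30 ± 0.600 CPM (SD, n = 2).

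INHBB (ENSG00000163083, chromosome 2, 120346143 to 120351808) stayed near its siControl level. It had 23.3 and 22.0 CPM in siControl and 20.4 and 21.5 CPM in siNAT10, which differ by -0.11 ± 0.09 on the log2 scale (SE, n = 2 per group). The groups did not overlap, but the gap between siControl replicate 2 and siNAT10 replicate 2 was smaller than the gap within either pair.

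**Figure D1:**
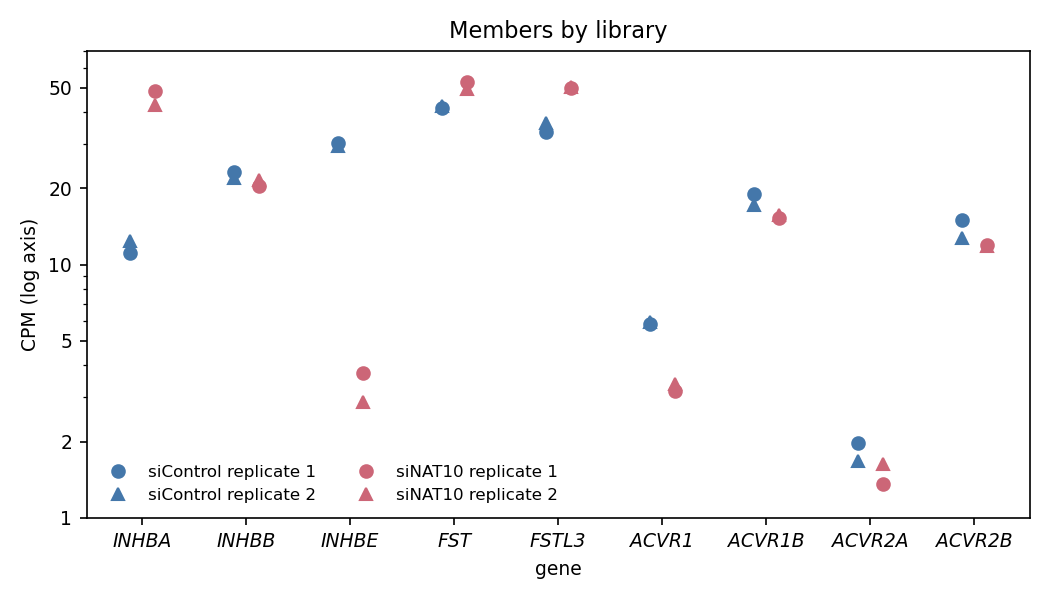
CPM of the 9 genes on a log axis, with 1 point per library (circles replicate 1, triangles replicate 2; siControl blue, siNAT10 red). INHBA stands at 11.1 and 12.4 CPM in siControl and at 48.5 and 42.8 CPM in siNAT10, and INHBE at 30.3 and 29.4 CPM against 3.73 and 2.88 CPM.

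Both follistatin genes were modestly higher in siNAT10. FST (chromosome 5, 53480409 to 53487134) had 41.6 and 42.2 CPM in siControl and 52.7 and 49.2 CPM in siNAT10, which differ by 0.28 ± 0.08 on the log2 scale (SE, n = 2 per group). FSTL3 (chromosome 19, 676365 to 683399) had 33.6 and 36.3 CPM in siControl and 49.9 and 50.3 CPM in siNAT10, which differ by 0.52 ± 0.08 on the log2 scale. The siNAT10 libraries lay above both siControl libraries for each gene. Relative to FST, FSTL3 came closer to parity, since FST took 56.1% and 54.6% of the summed CPM per kilobase of the pair in siControl and 52.1% and 50.3% in siNAT10.

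Among the 4 receptor genes the log2 fold change was largest in size for ACVR1, at -0.84. It was -0.23, -0.29 and -0.22 for ACVR1B, ACVR2A and ACVR2B. ACVR1 (chromosome 2, 157736444 to 157875862) had 5.83 and 5.95 CPM in siControl and 3.18 and 3.39 CPM in siNAT10, which differ by -0.84 ± 0.17 on the log2 scale (SE, n = 2 per group). It was 1.80-fold lower, on 222 and 221 counts against 110 and 100. ACVR1B, the type I receptor of activin A, (chromosome 12, 51951667 to 51997078) had 19.0 and 17.2 CPM in siControl and 15.3 and 15.7 CPM in siNAT10, which differ by -0.23 ± 0.10 on the log2 scale. The type I share moved towards ACVR1B: ACVR1 made up 30.4% and 33.0% of the summed CPM per kilobase of the 2 genes in siControl and 22.8% and 23.5% in siNAT10.

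The differences of the type II receptors are poorly resolved with 2 libraries per group. ACVR2B (chromosome 3, 38453851 to 38493142) had 15.0 and 12.7 CPM in siControl and 11.99 and 11.8 CPM in siNAT10, which differ by -0.22 ± 0.12 on the log2 scale (SE, n = 2 per group). ACVR2A (chromosome 2, 147844517 to 147930826) was the least abundant of the 9 genes, at 1.97 and 1.67 CPM in siControl and 1.36 and 1.63 CPM in siNAT10, on 47 to 75 counts per library. Its log2 fold change was -0.29 ± 0.27, and the nearest siControl and siNAT10 libraries were 1.67 and 1.63 CPM. ACVR2A shares exon sequence with ORC4 on the opposite strand, which is more abundant (20.7 and 16.7 CPM on average in siControl and siNAT10), and with AC009480.3, so its reads are uncertain.

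**Figure D2:**
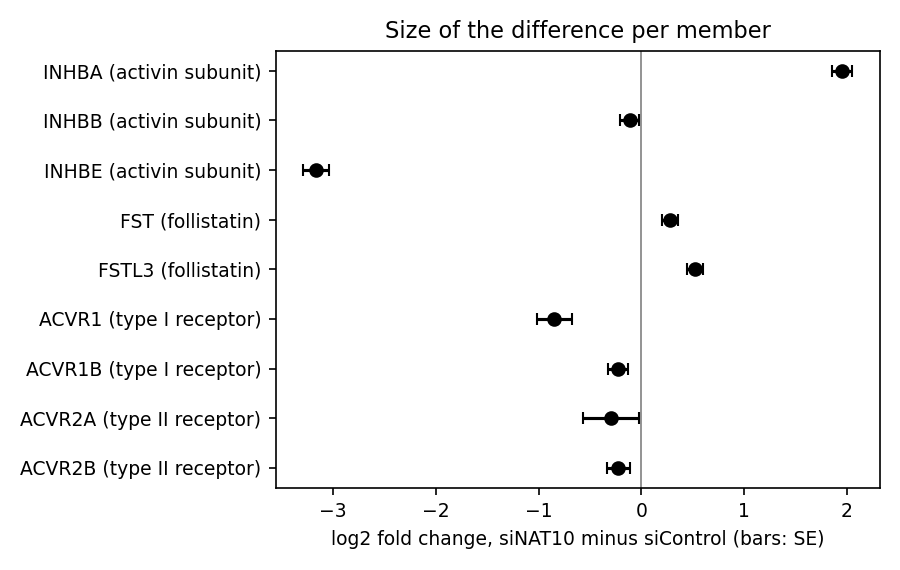
Log2 fold change of each gene, siNAT10 minus siControl, with bars of 1 standard error. INHBA lies at 1.96 and INHBE at -3.16, the follistatins between 0.28 and 0.52, and INHBB and the 4 receptors between -0.84 and -0.11.

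By the edgeR quasi-likelihood test over 20098 genes, with an adjusted p under 0.05 counted as a call, 3 of the 9 genes were called higher (INHBA, FST, FSTL3) and 2 lower (INHBE, ACVR1). Of all genes tested, 40.4% were called, 19.7% higher and 20.7% lower. The groups did not overlap for 9 of 9 genes, against 69.5% of all genes. The median log2 fold change was -0.22 for the 9 genes and -0.01 for all genes tested. Nothing is read from these counts, since the genes were chosen on this contrast. With libraries scaled by their totals alone, which moved the median gene to -0.12, FST was not called and ACVR1B and ACVR2B were, which made 2 higher and 4 lower. Without siControl replicate 2, ACVR1B and ACVR2B were also called (3 higher and 4 lower), and without siNAT10 replicate 1 FST was not called.

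The mRNA pool of the 3 subunits changed its makeup. Levels are compared here as CPM per kilobase of merged exons, which depends on the exons that the deposited table gives each gene. INHBE made up 53.8% of the summed level of the 3 subunits in each siControl library and 9.20% and 7.44% in siNAT10 replicates 1 and 2. INHBA went from 7.19% and 8.23% to 43.4% and 40.2%, and INHBB from 39.0% and 37.9% to 47.4% and 52.4%. The sum of the 3 was 18.7 and 18.1 CPM per kilobase in siControl and 13.4 and 12.8 in siNAT10. This lower sum rests on the length scaling, which divides INHBA by 8302 bases, INHBB by 3204 and INHBE by 3015. In CPM without that scaling, the sum was not lower in siNAT10. INHBE outweighed INHBA 7.49 and 6.54 times in the siControl libraries, whereas INHBA outweighed INHBE 4.72 and 5.40 times in the siNAT10 libraries.

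**Figure D3:**
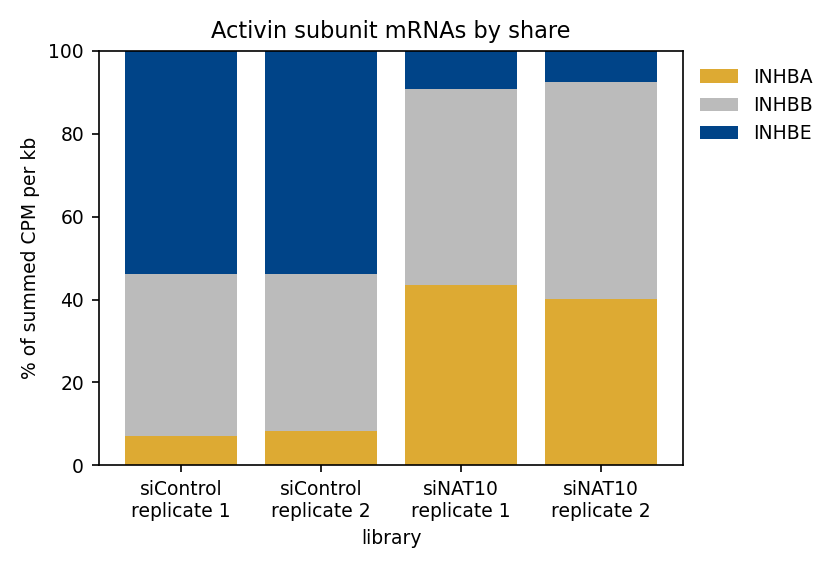
Share of INHBA, INHBB and INHBE in their summed CPM per kilobase, 1 bar per library. INHBE takes 53.8% in both siControl bars and 9.20% and 7.44% in the siNAT10 bars, while INHBA takes 7.19% and 8.23% against 43.4% and 40.2%.

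The follistatins were measured against the ligands they bind. FST and FSTL3 together reached 24.9 and 26.1 CPM per kilobase in siControl and 34.0 and 33.0 in siNAT10. Against INHBA alone, this was 18.6 and 17.5 times its level in siControl and 5.82 and 6.40 times in siNAT10. Against INHBA and INHBB together, it was 2.89 and 3.11 times in siControl and 2.79 and 2.78 times in siNAT10. Both ratios contain INHBA, which was chosen on this contrast, and are given as a description. The 4 receptors summed to 6.05 and 5.58 CPM per kilobase in siControl and 4.45 and 4.60 in siNAT10.

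Ordered by level per kilobase, the siControl libraries ran from FST (14.1 ± 0.154, SD, n = 2) and FSTL3 (11.4 ± 0.635) through INHBE (9.90 ± 0.195), INHBB (7.08 ± 0.283) and ACVR1B (3.19 ± 0.223) to ACVR1 (1.48 ± 0.022), INHBA (1.42 ± 0.107), ACVR2B (0.882 ± 0.105) and ACVR2A (0.269 ± 0.031). ACVR1 and INHBA did not differ beyond their spread there. In the siNAT10 libraries the order was FST (17.2 ± 0.815), FSTL3 (16.3 ± 0.102), INHBB (6.55 ± 0.253), INHBA (5.50 ± 0.482), ACVR1B (2.73 ± 0.050), INHBE (1.10 ± 0.199), ACVR1 (0.823 ± 0.037), ACVR2B (0.756 ± 0.0075) and ACVR2A (0.220 ± 0.028). INHBA moved from the seventh place to the fourth and INHBE from the third to the sixth, while FST, FSTL3, ACVR1B, ACVR2B and ACVR2A kept theirs. The means of FST and FSTL3 in siNAT10 were apart by about the SD of FST.

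The rest of the pathway was read from lists of 72 genes, of which 68 were in the table and 60 were tested. By the edgeR quasi-likelihood test 10 of these were higher and 17 lower, with a median log2 fold change of -0.15 against -0.01 for all genes. The 27 called make up a share near the 40.4% of all genes. The split was 7 higher and 24 lower with libraries scaled by their totals alone.

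**Figure D4:**
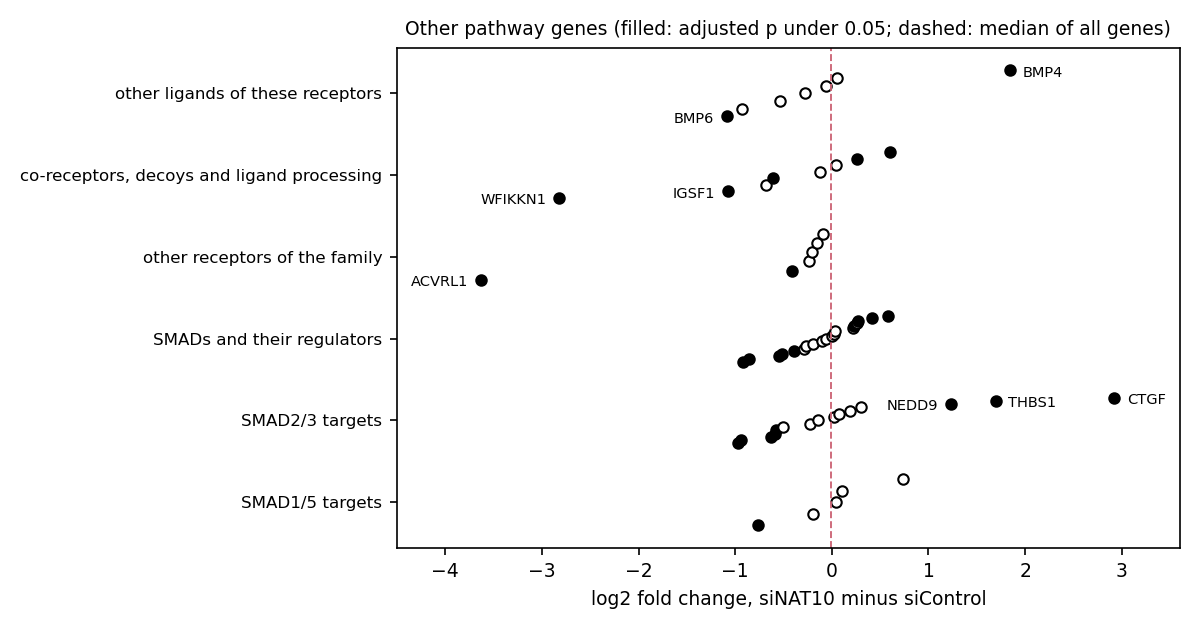
Log2 fold change of 60 other pathway genes, siNAT10 minus siControl, by list (filled points passed the edgeR adjusted p threshold, open points did not, and the dashed line is the median of all genes). CTGF at 2.92 and ACVRL1 at -3.63 lie farthest out.

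Among other ligands of these receptors, BMP6 fell, BMP4 rose and 5 were not called. BMP6, a ligand of ACVR1 with type II receptors, went from 49.8 ± 2.48 CPM to 23.5 ± 2.20 CPM (SD, n = 2 per group), or -1.09 ± 0.09 on the log2 scale (adjusted p = 9.97e-09, edgeR). BMP4 rose on few reads, 6 and 6 counts in siControl against 28 and 10 in siNAT10 (log2 fold change 1.85 ± 0.61, edgeR adjusted p = 0.0215). It was not called in 4 of the 9 alternatives that tested it, among them those without siNAT10 replicate 1 (1.07) and without either siControl replicate. Of 7 tested ligands 1 was higher and 1 lower, against 19.7% higher and 20.7% lower among all genes tested. GDF11, the most abundant of them, was at 72.6 and 69.7 CPM on average. INHA, the inhibin alpha subunit that turns activin subunits into inhibins, was at 1.05 and 0.553 CPM (edgeR adjusted p = 0.0651).

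Among co-receptors, decoys and ligand-processing enzymes, 2 of 8 tested genes were higher and 3 lower. The shares of all genes tested were 19.7% higher and 20.7% lower. TGFBR3 (betaglycan), which helps inhibin block activin receptors, fell from 49.8 to 32.6 CPM (-0.61 ± 0.08 in log2, adjusted p = 4.33e-06 by edgeR), and the membrane protein gene IGSF1 from 7.36 to 3.49 CPM (-1.08 ± 0.16, adjusted p = 2.16e-05). Of the 3 tested proprotein convertases, which cleave precursors of this ligand family, 2 rose and PCSK7 was not called. PCSK6 rose from 31.0 to 47.0 CPM (0.60 ± 0.08 in log2, adjusted p = 9.39e-06 by edgeR) and FURIN from 78.2 to 93.7 CPM (0.26 ± 0.07, adjusted p = 0.0042). FURIN was not called with libraries scaled by their totals alone, and PCSK6 shares exons with RP11-299G20.2 and RP11-299G20.5. WFIKKN1, a binder of related ligands that was picked out after its values were seen, had 34 and 18 counts in siControl and 0 and 6 in siNAT10.

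Of 6 other tested receptors of the family, 2 fell and none rose, against 20.7% lower and 19.7% higher among all genes tested. Nothing is read from so small a count. ACVRL1, a type I receptor best known from endothelium, had 79 and 70 counts in siControl and 4 and 6 in siNAT10, or -3.63 ± 0.42 on the log2 scale (adjusted p = 1.15e-06, edgeR). Of the endothelial markers, PECAM1, picked out after its values were seen, also fell (log2 fold change -2.29 ± 0.49, edgeR adjusted p = 8.26e-04). VWF went the other way (3.04 ± 0.56, edgeR adjusted p = 2.31e-04), and CDH5 was not called (0.57 ± 0.26). The part of these markers in the ACVRL1 value was not tested. TGFBR1, the type I receptor of transforming growth factor beta, was abundant and fell from 176 ± 5.50 to 133 ± 1.43 CPM (SD, n = 2 per group, log2 fold change -0.41 ± 0.07, edgeR adjusted p = 4.95e-05).

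Among SMADs and their regulators, 4 of 19 rose and 5 fell, near the 19.7% higher and 20.7% lower of all genes tested. The receptor-regulated SMADs of the activin branch parted: SMAD2 fell from 75.9 to 52.0 CPM (-0.54 ± 0.08 in log2, adjusted p = 2.93e-05 by edgeR) and SMAD3 rose from 19.9 to 29.7 CPM (0.58 ± 0.09, adjusted p = 4.43e-05). SMAD3 shares exons with RP11-798K3.2 on the opposite strand. Repressors and inhibitors of SMADs went both ways. TGIF1 (log2 fold change -0.86 ± 0.09, edgeR adjusted p = 4.35e-07) and SKIL (-0.52 ± 0.07, adjusted p = 1.54e-05), both SMAD repressors, fell. The related repressor SKI (log2 fold change 0.23 ± 0.07, edgeR adjusted p = 0.0122) and the inhibitory SMAD6 (0.41 ± 0.09, adjusted p = 0.00168), both picked out after their values were seen, rose. On the same list TGIF2 fell (-0.39 ± 0.11) and SMURF1 rose (0.28 ± 0.09). The inhibitory SMAD7 was not called (-0.26 ± 0.14). SKI was not called with libraries scaled by their totals alone (0.12) or without siNAT10 replicate 2 (0.21).

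Genes known to respond to SMAD2 and SMAD3 went both ways, with 3 of 15 higher, 5 lower and a median log2 fold change of -0.15. Among all genes tested, 19.7% were higher and 20.7% lower. CTGF (now CCN2), a matricellular protein gene, rose from 6.65 to 50.4 CPM (2.92 ± 0.10 in log2, adjusted p = 3.96e-14 by edgeR), the matrix glycoprotein gene THBS1 from 26.6 to 86.1 CPM (1.70 ± 0.08, adjusted p = 7.2e-12) and the adhesion scaffold gene NEDD9 from 15.4 to 36.1 CPM (1.23 ± 0.09, adjusted p = 4.37e-09). JUNB, an AP-1 subunit gene, fell from 43.6 to 22.7 CPM (-0.94 ± 0.10 in log2, adjusted p = 2.6e-07 by edgeR). CTGF, THBS1, NEDD9 and JUNB each share exons with a row on the opposite strand (RP11-69I8.3, CTD-2033D15.1 and CTD-2033D15.3, RP3-510L9.1 and HOOK2). With libraries scaled by their totals alone, 8 of the 15 were lower, as were 5604 of all 20098 genes. Of 5 genes of the SMAD1 and SMAD5 branch, HEY1 fell from 9.24 to 5.45 CPM (-0.77 ± 0.14 in log2, adjusted p = 1.90e-04 by edgeR) and ID1, ID2, ID3 and ATOH8 were not called.

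On chromosome 12 INHBE lies among genes with smaller differences. Of 8 tested genes whose span lies within 100 kb of INHBE, 3 fell and none rose, against 20.7% lower and 19.7% higher among all genes tested. INHBC, the subunit gene that ends 1495 bases upstream, had 1.66 CPM in siControl and 1.15 CPM in siNAT10 (log2 fold change -0.54 ± 0.29, edgeR adjusted p = 0.148). GLI1, 855 bases downstream, was at 1.62 and 1.32 CPM and changed sign without siControl replicate 1 (0.15). Further downstream, the methionyl-tRNA synthetase gene MARS fell from 120.1 to 80.6 CPM (-0.58 ± 0.07 in log2, adjusted p = 1.55e-06 by edgeR) and DDIT3, the stress transcription factor CHOP, from 122 to 71.9 CPM (-0.76 ± 0.07, adjusted p = 5.39e-08). MARS and DDIT3 share exon sequence on opposite strands, so their reads cannot be told apart with certainty. MBD6 fell by 0.52 on the log2 scale (edgeR adjusted p = 0.00764), a call lost without siNAT10 replicate 1. R3HDM2, MIR616 and DCTN2 had log2 fold changes of -0.14, -0.04 and 0.02 and were not called. MBD6 shares exon sequence with DCTN2 on the opposite strand, which is more abundant (36.8 against 7.39 CPM in siControl), so its reads are also uncertain. GLI1 and MARS share exons with ARHGAP9, and R3HDM2 with RP11-123K3.4. Around INHBA no other row within 100 kb passed the filter.

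**Figure D5:**
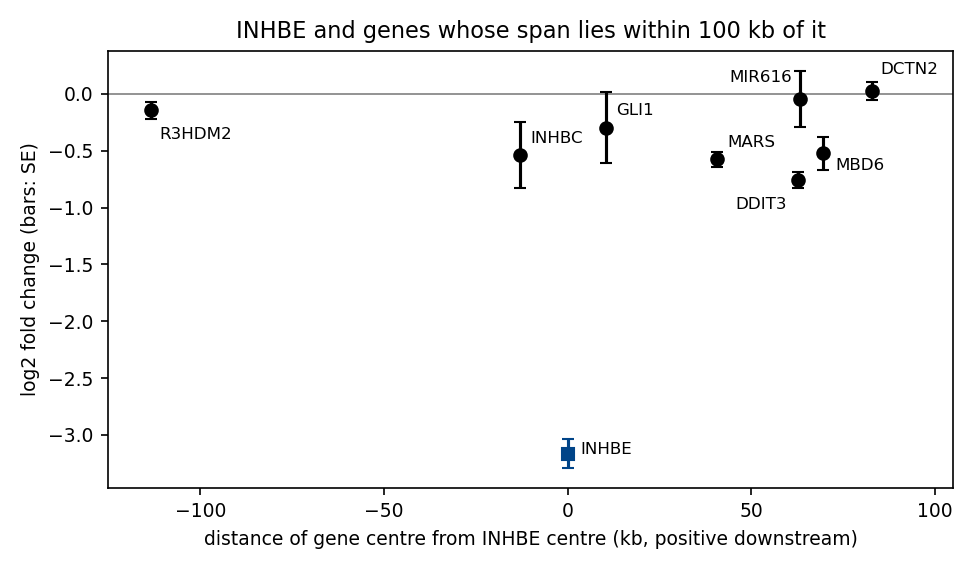
Log2 fold change (bars: SE) against the distance of each gene's centre from that of INHBE in kilobases, positive downstream. INHBE stands at -3.16 and its 8 neighbours between -0.76 and 0.02.

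The genes with the profile most like that of INHBA over the 4 libraries, by Euclidean distance between centred log2 CPM among 8435 protein-coding genes whose higher group averaged 10 CPM or more, were THBS1 (distance 0.302), the cancer-testis gene CSAG1 (0.310) and the laminin chain gene LAMA1 (0.310). Their log2 fold changes were 1.70, 2.24 and 1.88. Those most like INHBE were QPRT, an enzyme of NAD synthesis (distance 0.365), the complement factor gene CFB (0.402) and the proteoglycan gene SPOCK1 (0.405), with log2 fold changes of -3.50, -3.07 and -2.84. CSAG1 has close paralogs, THBS1, LAMA1, QPRT and CFB share exons with other rows, and with 2 groups of 2 libraries the distance reflects mainly the size of the group difference.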

How the data were processed

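RNA of 4 SAS libraries, 2 labelled siControl and 2 labelled siNAT10, was sequenced. The authors deposited whole read counts per gene with gene positions. The submitters' processing notes name fastp 0.23.4, STAR 2.5.3a, featureCounts and GRCh38. Annotation release, strand setting and molecular identifiers: not given in the sources used here. Of counts from 1 to 50, between 72.0% and 73.5% were even, so counts may include both mates of a pair. Library totals limit precision, and 3 counts is taken as the floor for counting error.

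From these counts, edgeR 4.0.16 (R 4.3.3) was run with its expression filter, TMM scaling and the quasi-likelihood test on 20098 genes, with Benjamini-Hochberg adjustment and a threshold of 0.05. It was tested on simulated data first, in which far fewer genes changed than were called here. That run therefore does not give its error rate on these data. CPM uses the TMM-scaled totals, and length is that given in the deposited table. Samples were grouped by label. The 9 genes and all lists were chosen with earlier results of these data known. Text names all 9 genes, NAT10, up to 4 called genes per list with the smallest adjusted p and rows sharing their exons. By the same rule it names neighbours of INHBA and INHBE within 100 kb and the 3 nearest profiles of each. Others were named beside this rule with their values known, among them GDF11, INHA, PCSK7, WFIKKN1, PECAM1, SKI, SMAD6, SMAD7, FOXH1, TGIF2 and SMURF1. GDF3, LEFTY1, LEFTY2 and CFC1 were not analysed here. Alternatives were DESeq2 1.42.0, other scalings and filters, counts divided by 2, a replicate block and leaving out each library. Promoters come from RefSeq (GRCh38.p14).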

Additional observations from a re-analysis of the deposited data

How the results depend on the processing

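INHBA, INHBB, INHBE, FSTL3, ACVR1 and ACVR2A kept their direction and side of the threshold in 11 of 11 alternatives. Of the 9 genes, 2 were higher and 4 lower with libraries scaled by their totals alone, and leaving out 1 library gave 2 to 3 higher and 2 to 4 lower. With totals alone, NAT10 was at -0.024 and DCTN2 at -0.087 on the log2 scale, and 2688 genes were higher and 5604 lower over the whole table (32.4% of calls higher, against 48.7%). Leaving out 1 library gave log2 fold changes of -0.64 to 0.15 for GLI1 and -0.31 to 0.28 for MIR616. The cause was not tested. DESeq2 called 3167 genes higher and 3089 lower. The labels do not say whether same-numbered libraries were prepared together. The correlation of their deviations was -0.02, which does not settle it. With the replicate block 3 of the 9 genes were higher and 2 lower, and 3997 and 4257 of all genes. With 2 libraries per group, small differences such as those of ACVR1B, ACVR2A and ACVR2B are poorly resolved. All alternatives reuse the libraries on which the 9 genes were chosen, so they describe dependence on the processing alone.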
